A study of Rattus norvegicus with 7 samples.

Results

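The islet levels of 3 microRNAs (miRNAs) that are linked to inflammatory cytokines, miR-21, miR-146a and miR-146b, were compared between 12- and 3-month-old rats. They were chosen by name, as the array features listed as rno-miR-21, rno-miR-146a and rno-miR-146b, with the other strand of each precursor (marked with a star on the array) left out. This gave 3 of the 677 rat miRNAs on the array. All 3 were detected on every array. No call for a change with age was made for any of them after the arrays were normalised.

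Pancreatic islets had been isolated by collagenase digestion from male Wistar rats, 4 aged 12 months (replicates 2, 4, 10 and 16) and 3 aged 3 months (replicates 9, 11 and 13). The labels give no drug, cytokine or diet for any rat, so the 2 groups differ by age alone as far as the labels state, and the older rats are middle-aged rather than senescent animals. Total RNA of each rat was labelled with Cy3 and hybridised to 1 Agilent single-colour miRNA array, on which RNA carrying 1 dye is read by several probes per miRNA. The series asks how the miRNA profile of islets differs between these ages.

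miRNAs are short RNAs that pair with messenger RNAs through their seed, bases 2 to 8 counted from the 5′ end, and lower the output of those messengers. Transcription of the genes for miR-21 and miR-146a is raised by NF-κB, the transcription factor that IL-1β and TNF-α activate in beta cells, and both miRNAs rise in beta cells exposed to these cytokines. miR-146a and miR-146b repress Irak1 and Traf6, proteins that carry the signal from the IL-1 receptor and Toll-like receptors to NF-κB, and so belong to a negative feedback loop. miR-21 is found in most cell types, including fibroblasts and leucocytes, and represses mRNAs such as Pdcd4. Islets hold endocrine, endothelial, mesenchymal and immune cells, and in RNA of whole islets fewer cells of a type cannot be told apart from less RNA per cell.

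The mature sequences show how closely the members are related and which of them could share targets. All 3 members and their 3 other strands were matched in the RefSeq miRNA table of the rat assembly GRCr8. The sequences below run 5′ to 3′ and the capitals mark the seed.
miR-21: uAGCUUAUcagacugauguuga
miR-146a: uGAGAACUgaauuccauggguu
miR-146b: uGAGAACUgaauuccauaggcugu
miR-146a and miR-146b carry the same seed, and no other mature miRNA among the 693 in the table has it. The seed of miR-21 is found in miR-21 only. Over their first 22 bases miR-146a and miR-146b are identical at 20 positions. They differ by G18A and U21C, written with the base of miR-146a first and positions counted from 1 at the 5′ end, and miR-146b is longer by 2 bases. The differences lie towards the 3′ end, outside the seed. How far the array's probes tell the pair apart was not tested.

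miR-21 lies on chromosome 10 at chr10:71902653-71902674 on the minus strand of GRCr8, in the 5′ arm of its hairpin (bases 18 to 39 of 92). Its nearest listed genes are Tubd1 and Vmp1. miR-146a lies at chr10:28350053-28350074 on the minus strand (bases 17 to 38 of a hairpin of 95), within the range of a long non-coding RNA gene. miR-146b lies at chr1:255144874-255144897 on the plus strand (bases 15 to 38 of a hairpin of 88), within the range of a protein-coding gene and between Cuedc2 and Mfsd13a. The same seed is thus carried by genes on chromosomes 10 and 1.

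The software of the scanner called between 246 and 296 miRNAs detected per array. The older rats' arrays were brighter, with a 75th percentile of the total gene signal of 67 to 73.8 units at 12 months and 37.4 to 55.4 at 3 months. The endocrine miRNAs miR-375, miR-7a and miR-7b, which mark islet cells, were called detected in every rat, and the same held for miR-217, miR-216a and miR-216b-5p, markers of the exocrine acinar cells around the islets. 12-month-old replicate 10 had the most extreme miR-21 signal, and the normalised differences of the members and of their pairs are also given without it. The signal of a miRNA is the background-subtracted total gene signal, in the linear units of the scanner, and precision is limited by there being only 7 arrays.

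Before normalisation, miR-21 had signals of 4162, 3947, 6018 and 4296 units in 12-month-old replicates 2, 4, 10 and 16. In 3-month-old replicates 9, 11 and 13 it had 1729, 3823 and 1387 units. The ages did not overlap, but 3-month-old replicate 11 came close to the lowest of the older rats. miR-146a had signals of 183, 447, 245 and 213 units at 12 months, in the same order of rats, and 143.4, 201 and 105 units at 3 months. Here the ages overlapped, since 3-month-old replicate 11 lay above 12-month-old replicate 2, and 12-month-old replicate 4 was more than 1.5 times as bright as any other rat. miR-146b had signals of 114, 98.3, 76 and 115 units at 12 months and 45.5, 67.1 and 48.2 units at 3 months. All older rats lay above all younger rats for this miRNA. For all 3 members, replicate 11 was the brightest of the younger rats, and its array also had the highest 75th percentile of its age.

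**Figure D1:**
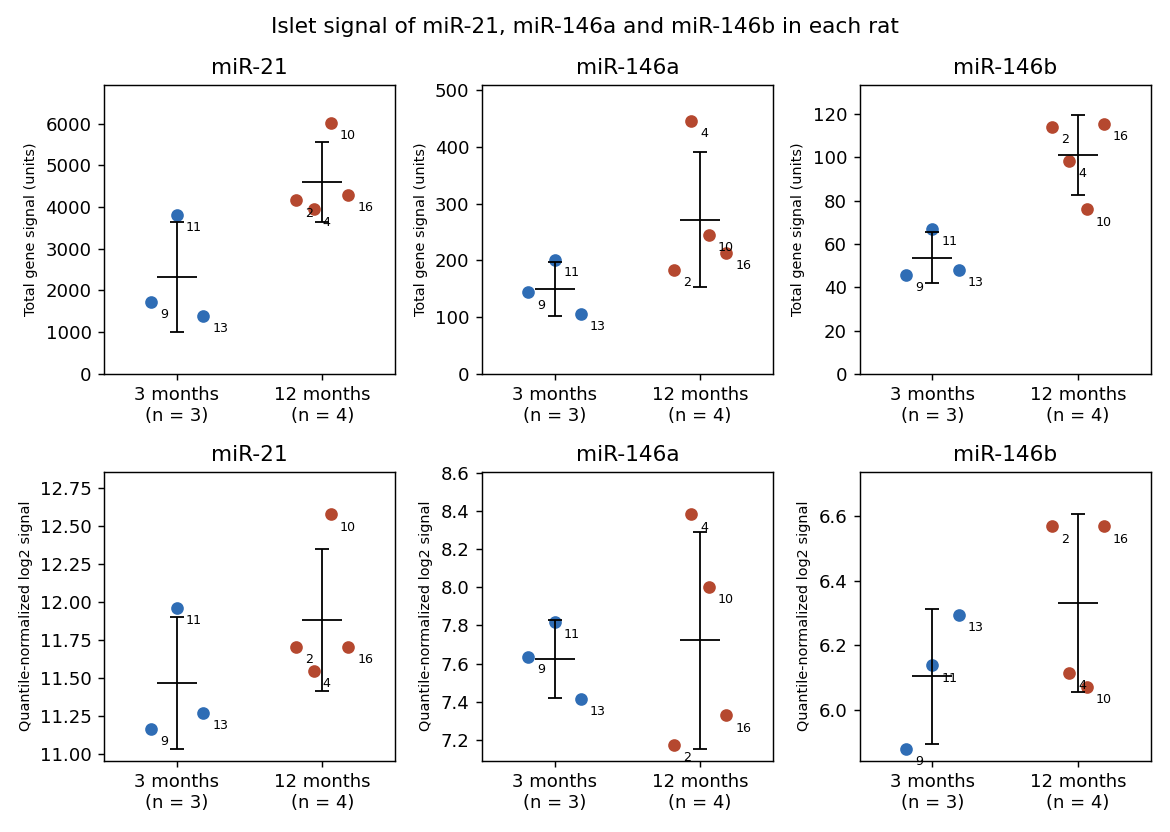
Signal of miR-21, miR-146a and miR-146b in each rat, before normalisation (upper row, total gene signal in units of the scanner, linear axes from 0) and after quantile normalisation (lower row, log2 scale, axes not from 0). Each point is 1 rat with its replicate number, and the bars give the mean and SD of 3 rats at 3 months and 4 rats at 12 months. In the upper row the ages are apart for miR-21 and miR-146b, and in the lower row they overlap for all 3 miRNAs.

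The signals were well above the noise of the measurement. They were 9.71 to 12.9 times the error that the software gives for them, and the dimmest of the members, miR-146b, had 20 to 58.6 times the lowest signal called detected on its array. Each member was read by 2 probes with 10 spots each, and no spot was saturated. The SD between spots of 1 probe on 1 array was at most 0.10 on the log2 scale for miR-21, 0.15 for miR-146a and 0.21 for miR-146b.

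Both probes of a member gave nearly the same age difference. For miR-21 the mean log2 spot signal before normalisation was higher at 12 months by 1.11 with one probe and by 1.18 with the other. For miR-146a these differences were 0.82 and 0.83, and for miR-146b they were 0.86 and 0.95. The log2 ratio between the 2 probes of a miRNA had an SD of 0.13 over the 7 arrays for miR-21, 0.04 for miR-146a and 0.10 for miR-146b. The SD between rats, which here includes the brightness of the arrays, was 0.28 and 0.77 for the log2 signal of miR-21 at 12 and 3 months, 0.56 and 0.47 for miR-146a, and 0.28 and 0.30 for miR-146b.

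**Figure D2:**
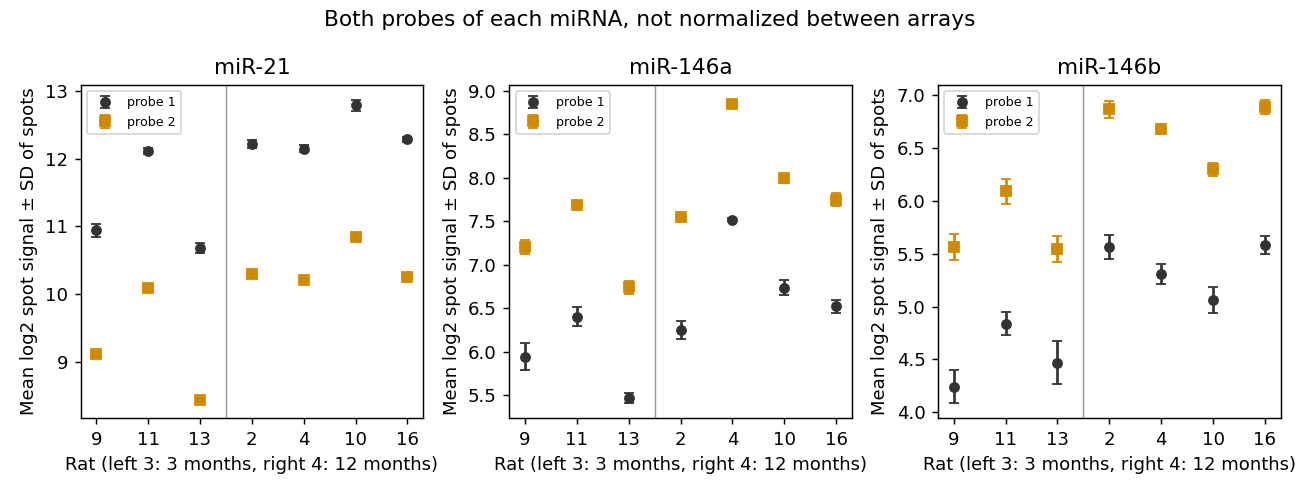
Mean log2 signal of the spots of each probe in each rat, not normalised between arrays, for the 2 probes of miR-21, miR-146a and miR-146b, with bars for the SD between spots. The 3 rats on the left of the line were 3 months old and the 4 on the right 12 months old; the probes of a miRNA follow each other from rat to rat, and the height of a probe is not comparable with that of another probe.

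Before normalisation, the members were higher at 12 months, and so were most miRNAs on the array. miR-21 was higher at 12 months by 1.12 on the log2 scale (standard error 0.34, limma adjusted p = 0.0253; two-sided exact permutation p = 0.0286, the smallest that 4 rats against 3 allow). miR-146a was higher by 0.82 (standard error 0.34, limma adjusted p = 0.0476; exact permutation p = 0.114). miR-146b was higher by 0.92 (standard error 0.27, limma adjusted p = 0.0247; exact permutation p = 0.0286). The median over the 272 miRNAs tested was 0.79, and 62.1% of them were higher at 12 months with an adjusted p below 0.05. The ages did not overlap, with the older rats higher, at 48.2% of the 272 miRNAs, against 2 of the 3 members. Of the 272 miRNAs, 86.4% had a smaller difference than miR-21, 54% a smaller one than miR-146a and 71.3% a smaller one than miR-146b. miR-146a thus lay near the middle of all miRNAs, and miR-21 and miR-146b lay above it.

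**Figure D3:**
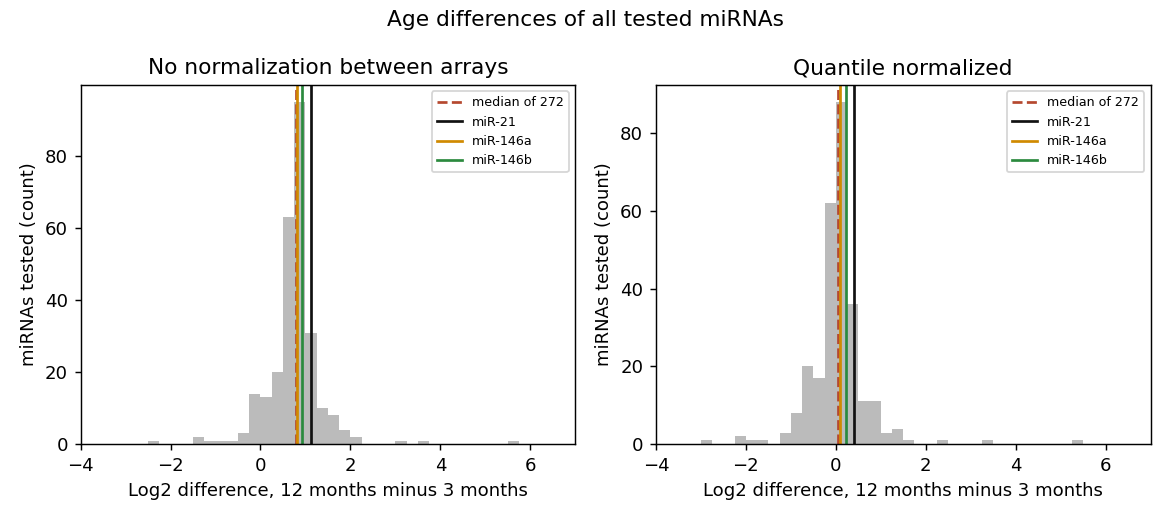
Number of the 272 tested miRNAs at each log2 difference between 12 and 3 months, before normalisation (left) and after quantile normalisation (right), in bins of equal width. The dashed line is the median of all 272, 0.79 on the left and 0.06 on the right, and the solid lines are miR-21, miR-146a and miR-146b, at 1.12, 0.82 and 0.92 on the left and at 0.41, 0.10 and 0.23 on the right.

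The signals were then put on a log2 scale and quantile normalised, which gives every array the same set of values and keeps only the rank of each miRNA. miR-21 held ranks 12 to 26 of the 677 signals, counted from the brightest, miR-146a ranks 80 to 119 and miR-146b ranks 141 to 169. Arrays on which a miRNA has the same rank get the same value, as 12-month-old replicates 2 and 16 did for miR-21 (rank 20) and for miR-146b (rank 141). Their signals before normalisation were not identical.

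Normalised miR-21 had log2 signals of 11.70, 11.55, 12.57 and 11.70 in 12-month-old replicates 2, 4, 10 and 16, and of 11.17, 11.96 and 11.27 in 3-month-old replicates 9, 11 and 13. Replicate 11 lay above 3 of the 4 older rats, so the ages overlapped. The mean was 11.88 ± 0.47 in the older rats (SD, n = 4) and 11.47 ± 0.43 in the younger (SD, n = 3). A difference of 0.41 (standard error 0.30) lay within the SD of either age, and the limma adjusted p was 0.523 (exact permutation p = 0.286). This is a 1.33-fold higher signal with a 95% interval from 0.826- to 2.15-fold, which holds both no change and a doubling of the level. Without replicate 10, the difference was 0.19 (limma adjusted p = 0.649), and without 3-month-old replicate 11 it was 0.66 (limma adjusted p = 0.289).

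Normalised miR-146a had log2 signals of 7.17, 8.38, 8.001 and 7.33 in the 12-month-old rats, in the same order, and of 7.64, 7.82 and 7.41 in the 3-month-old rats. The older rats lay on both sides of the younger ones, with replicates 4 and 10 above all of them and replicates 2 and 16 below. The mean was 7.72 ± 0.57 in the older rats (SD, n = 4) and 7.62 ± 0.20 in the younger (SD, n = 3), and the difference was 0.10 (standard error 0.30, limma adjusted p = 0.943; exact permutation p = 0.771). As a fold this is 1.07, with a 95% interval from 0.661 to 1.73. Its sign depended on single rats, with -0.13 without 12-month-old replicate 4 and -0.019 without replicate 10, and scaling of the arrays by their miR-7a signal gave -0.049.

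Normalised miR-146b had log2 signals of 6.57, 6.11, 6.07 and 6.57 in the 12-month-old rats and of 5.88, 6.14 and 6.29 in the 3-month-old rats. Replicates 2 and 16 lay above all younger rats and replicates 4 and 10 among them, whereas for miR-146a replicates 4 and 10 were the higher ones. The mean was 6.33 ± 0.28 in the older rats (SD, n = 4) and 6.10 ± 0.21 in the younger (SD, n = 3), and they differed by 0.23 (standard error 0.19, limma adjusted p = 0.574; exact permutation p = 0.286), or 1.17-fold with a 95% interval from 0.858 to 1.59. Without replicate 10 it was 0.30 (limma adjusted p = 0.315), and leaving out any 1 of the 7 rats gave 0.12 to 0.33. It was 0.046 with scaling of the arrays by miR-7a and 0.40 with array weights, which count arrays that differ from the rest less (limma adjusted p = 0.967 and 0.109).

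Of the 3 members 0 had an adjusted p below 0.05 after quantile normalisation, and 0 had an unadjusted one (limma, and the exact permutation test above). Over all 272 miRNAs, 1.47% passed at the adjusted and 21.7% at the unadjusted level, and at 17.3% the ages did not overlap. The ages overlapped for each member. The mean was higher at 12 months for 3 of 3 members and for 57.7% of all tested miRNAs. The sign of miR-146a turned under the settings named above and also with array weights (-0.27). By the size of the difference, 72.1% of the tested miRNAs differed less between the ages than miR-21, 50.7% less than miR-146b and 29.8% less than miR-146a. The SD within an age, pooled over the ages, was 0.45 for miR-21, 0.46 for miR-146a and 0.25 for miR-146b, against a median of 0.27 over the tested miRNAs, so that miR-21 and miR-146a varied more from rat to rat than 80.1% and 80.9% of them.

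By their barcodes the arrays lay in slide row 1 or 2, with rats of both ages in each. In row 1, with 2 older rats and 1 younger rat, the difference was 0.46 for miR-21, 0.14 for miR-146a and 0.46 for miR-146b. In row 2, with 2 rats of each age, it was 0.52, 0.048 and 0.10. The sign was the same in both rows for each member, but a row is too small for a test of its own.

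**Figure D4:**
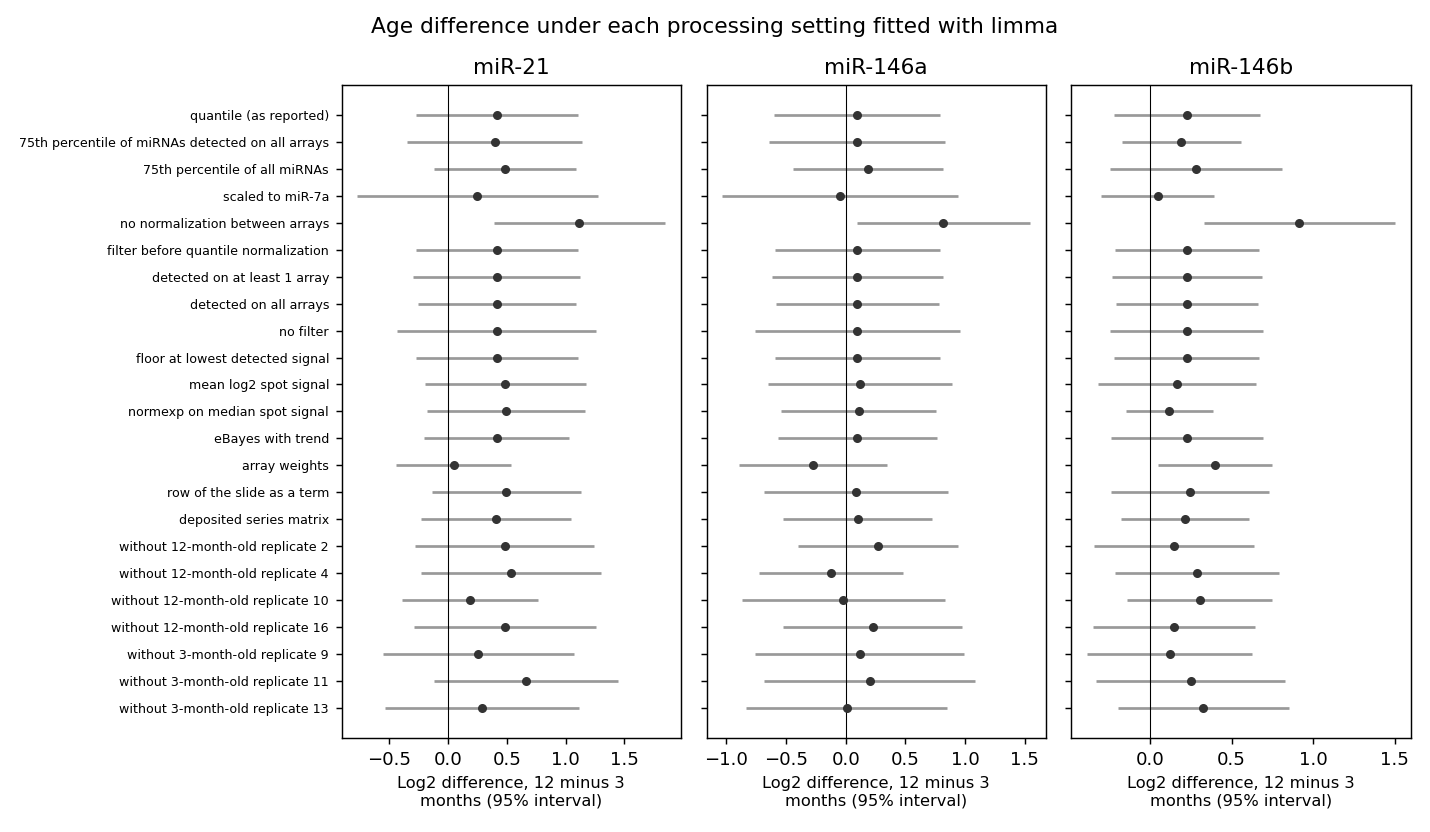
Log2 difference between 12 and 3 months for miR-21, miR-146a and miR-146b under the reported processing and 22 alternatives fitted with limma, with 95% intervals. miR-21 and miR-146b lie to the right of 0 throughout and miR-146a lies on either side; the intervals of all 3 leave out 0 with no normalisation between arrays, and that of miR-146b also does with array weights.

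The members were also compared with each other within each array. Scaling an array moves both members of a pair alike, so a pair compared on unnormalised signals does not depend on it. Quantile normalisation works by rank and can move the members of a pair by unequal amounts. The normalised log2 signal of miR-21 exceeded that of miR-146a by 3.16 to 4.57 over the older rats and by 3.53 to 4.14 over the younger rats, and the mean of this within-array difference was 0.32 higher at 12 months (exact permutation p = 0.457, adjusted p = 0.8 over 3 pairs). For miR-21 and miR-146b the within-array difference was 0.19 higher at 12 months (exact permutation p = 0.743, adjusted p = 0.8). For miR-146a and miR-146b it was lower by 0.13 in the means, at 1.39 ± 0.83 (SD, n = 4) and 1.52 ± 0.35 (SD, n = 3; exact permutation p = 0.8, adjusted p = 0.8). The ages overlapped for all 3 pairs. Without replicate 10 the 3 values were 0.21, -0.12 and -0.32. Unnormalised signals gave 0.30, 0.20 and -0.10 for the 3 pairs. These values compare probes of different affinity, so only their change between ages, and not their size, can be read. An unequal change of the members with age was not detectable with these rats, and the values do not show that they changed alike.

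Across the 7 arrays the profiles of the members were not close to each other. After each was centred on its own mean, the mean absolute log2 difference was 0.43 between miR-21 and miR-146a, 0.40 between miR-21 and miR-146b and 0.53 between miR-146a and miR-146b. The tested miRNAs most like miR-21 by this measure were miR-200b* (0.16), miR-130a (0.18) and miR-450a (0.20), against a median of 0.43 over all tested miRNAs. Those most like miR-146a were miR-1949 (0.15), miR-3593-3p (0.16) and miR-10a-5p (0.22), with a median of 0.45. Those most like miR-146b were miR-30e*, miR-204 and miR-7a-1* (0.059, 0.059 and 0.067), with a median of 0.27. The measure uses normalised values and is smaller for miRNAs that vary less between rats, so its size is not comparable between members. This is a description over 7 arrays from which the nearest of all other tested miRNAs were picked.

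The other strands of the 3 precursors were on the array and were not detected on any of the 7 arrays. Their signals reached at most 2.50 units for miR-21*, 0.277 for miR-146a* and -1.82 for miR-146b*. They are printed here to show what the array looked for, with the seed in capitals.
miR-21*: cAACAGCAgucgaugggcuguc
miR-146a*: aCCUGUGAaguucaguucuuu
miR-146b*: cCUAGGGAcucaguucuggug
At both ages, the measured signal of these precursors thus came from the 5′ arm, and no change of the other arm could be measured.

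Other miRNAs known to be induced by inflammatory cytokines or NF-κB in beta cells or leucocytes were taken as a list of 14. Of these 13 were found on the array under the listed names, 11 were detected on at least 1 array and 10 were tested. They include miR-34a, the miR-29 family, miR-101a and miR-30b-5p, which rise in cytokine-treated islets or beta cells, miR-132 and its cluster partner miR-212, miR-221, and miR-125b-5p. miR-9 and miR-147, both induced by Toll-like receptor ligands in myeloid cells, were not detected on any array, and miR-222 was detected on 1 array at 12 months. miR-155, the miRNA of this group with the best known role in macrophages, was not analysed here.

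Of the 10 tested, 0 had an adjusted p below 0.05 by limma, where 1.47% of all tested miRNAs passed, and 1 had an unadjusted p below 0.05, where 21.7% of all passed. Of their point estimates 7 were above 0 and 3 below, with a range from -0.29 to 0.40 and a median of 0.065, against 0.056 for all tested miRNAs. The one with an unadjusted p below 0.05 was miR-221, a miRNA that represses the cell-cycle inhibitor p27. Its normalised log2 signal was 5.50 ± 0.14 in the older rats (SD, n = 4) and 5.09 ± 0.21 in the younger (SD, n = 3). It differed by 0.40 (standard error 0.16) with a limma adjusted p of 0.19, and every older rat lay above every younger one (exact permutation p = 0.0286). The gap was narrow, with 5.37 in 12-month-old replicate 4 and 5.32 in 3-month-old replicate 11. The ages did not overlap for 1 of the 10 tested, and for 17.3% of all tested miRNAs. miR-221 no longer had an unadjusted p below 0.05 with the 75th percentile of always-detected miRNAs as the scale (0.30, limma adjusted p = 0.564). The same held with that of all miRNAs (0.39, limma adjusted p = 0.379) and with miR-7a (0.15, limma adjusted p = 0.942). miR-34a, which like miR-21 and miR-146a rises under IL-1β, differed by 0.38 (standard error 0.36, limma adjusted p = 0.622). miR-132 differed by 0.06 (standard error 0.40) and miR-212 by -0.29 (standard error 0.17), with limma adjusted p of 0.953 and 0.399. The 3 miR-29 miRNAs were among the brightest on each array and differed by 0.15 (miR-29a), 0.073 (miR-29b) and 0.21 (miR-29c). At such ranks quantile normalisation leaves little room for a change to show. Normalised miR-29b was 14.51 on every array except that of 12-month-old replicate 10. With the 75th percentile of always-detected miRNAs as the scale, the differences were 0.30, 0.44 and 0.32 (limma adjusted p = 0.332, 0.152 and 0.309). In the deposited matrix miR-29b differed by 0.65 with a limma adjusted p of 0.0371, the 1 call of the list there, and miR-29a by 0.40 (adjusted p = 0.113). By quantitative PCR, the paper found no reproducible change of miR-29b and reported a rise of miR-34a in the islets of older rats. With no normalisation between arrays, 6 of the 10 had an adjusted p below 0.05 by limma, where 62.1% of all tested miRNAs were higher at that level.

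A second list held 7 miRNAs known to repress components of the NF-κB pathway, of which 6 were found on the array and tested. Of these 0 had an adjusted p below 0.05 by limma, 1 was higher and 2 were lower at 12 months at an unadjusted p below 0.05 (9.19% and 12.5% of all tested miRNAs), and the median difference was 0.01. miR-199a-5p, which represses the kinase Ikkβ and is made by mesenchymal cells, differed by 1.39 (standard error 0.33, limma adjusted p = 0.0608). With the 75th percentile of all miRNAs as the scale this was 1.39 with an adjusted p of 0.0225, and without replicate 10 it was 1.20 (adjusted p = 0.082). Scaled to miR-7a it was 1.15 (limma adjusted p = 0.365), and in the deposited matrix 1.23 (limma adjusted p = 0.0657). miR-181b, which represses an importin that carries NF-κB into the nucleus, differed by -1.21 (standard error 0.39, limma adjusted p = 0.104), and by -1.47 without replicate 10 (adjusted p = 0.082). miR-16 differed by -0.38 (standard error 0.16, limma adjusted p = 0.199), and by 0.31 with no normalisation. miR-223, a myeloid miRNA, and miR-126, an endothelial one, differed by -0.05 and 0.07. miR-10a-5p differed by 0.45 (standard error 0.21, limma adjusted p = 0.277).

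**Figure D5:**
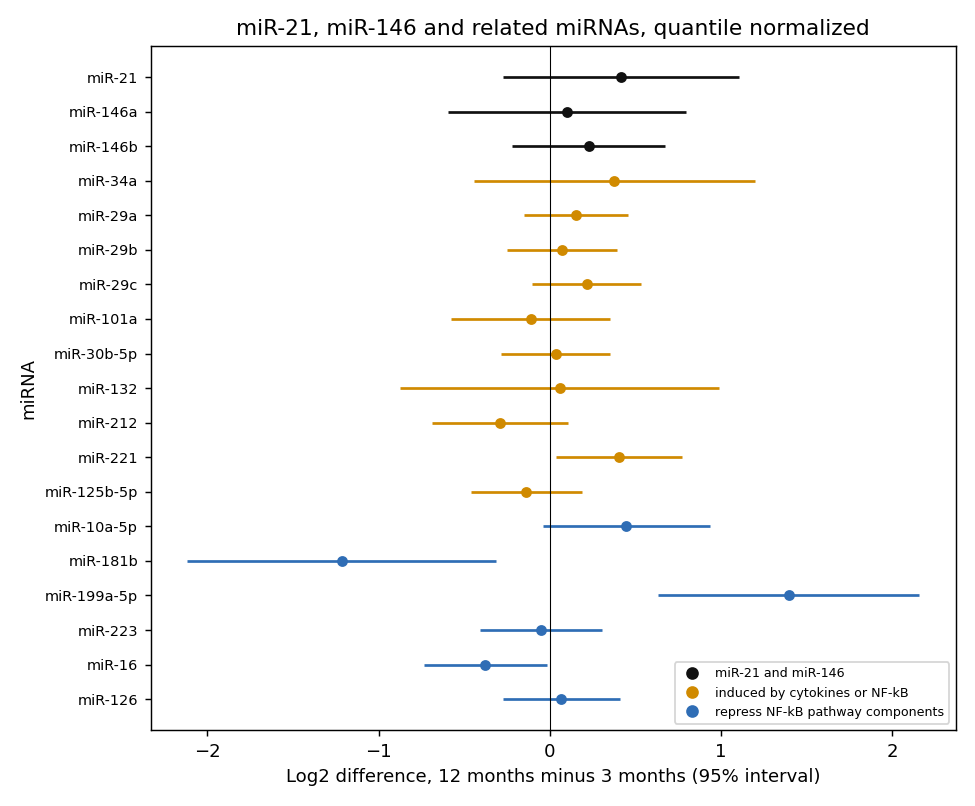
Log2 difference between 12 and 3 months after quantile normalisation, with 95% intervals from limma, for miR-21, miR-146a and miR-146b (black), the 10 tested miRNAs induced by cytokines or NF-κB (orange) and the 6 tested miRNAs that repress the NF-κB pathway (blue). Intervals leave out 0 for miR-221, miR-181b, miR-199a-5p and miR-16, none of which had an adjusted p below 0.05.

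Because miR-146a and miR-21 are also made by leucocytes and mesenchymal cells, markers of these cells were read from the same arrays. Of 6 leucocyte miRNAs 5 were found on the array. By limma, 0 of the 5 had an adjusted p below 0.05, where 1.47% of all tested miRNAs passed. At an unadjusted p below 0.05, 2 of the 5 were higher at 12 months, miR-142-3p and miR-142-5p, against 9.19% of all. The ages did not overlap for these 2, and for 17.3% of all tested miRNAs. miR-142-3p, which is made by blood-forming cells, had a normalised log2 signal of 7.35 ± 0.57 in the older rats (SD, n = 4) and 6.44 ± 0.20 in the younger (SD, n = 3), which differ by 0.91 (standard error 0.30, limma adjusted p = 0.118). Replicate 4, the older rat with the highest miR-146a, also had the highest signal of miR-142-3p, at 390 units against 137 in replicate 2, 175 in replicate 10 and 180 in replicate 16. It was also the highest older rat for miR-142-5p and miR-150, but not for the other leucocyte miRNAs. For miR-342-3p it had 462 units against 582 in replicate 2, and for miR-223 it had 113 against 115 in replicate 16. miR-150, miR-223 and miR-342-3p differed by 0.33, -0.05 and 0.05. miR-142-5p was called detected in 4 of 4 older rats and 0 of 3 younger ones, and so was tested only because of the age at which it is higher. The summed signal of the 5 leucocyte miRNAs was 687 to 1125 units at 12 months and 390 to 530 at 3 months, and none of them was at 0. Of the 5 mesenchymal miRNAs, 4 were detected in every rat. miR-143 differed by 0.38, miR-199a-3p by 1.16, miR-199a-5p by 1.39 and miR-214 by 1.30, with limma adjusted p of 0.324, 0.0817, 0.0608 and 0.0608. With each array's 75th percentile over all miRNAs as the scale, limma gave adjusted p of 0.0311 for miR-199a-3p, 0.0225 for miR-199a-5p and 0.0227 for miR-214. They were not called with the 75th percentile of always-detected miRNAs, with miR-7a or in the deposited matrix. In the same order, limma adjusted p was 0.0911, 0.067 and 0.067 with the 75th percentile of always-detected miRNAs. It was 0.381, 0.365 and 0.367 with miR-7a, and 0.113, 0.0657 and 0.0521 in the deposited matrix. With no normalisation between arrays all were below 0.05. miR-145 was detected in 4 of 4 older rats and 2 of 3 younger ones, so that it too was tested only through the older rats. The summed signal of the 5 was 2629 to 3645 units at 12 months and 736 to 1711 at 3 months. The summed signals are not normalised between arrays and so include the brightness of the array. The 3 acinar markers were lower at 12 months, with differences of -1.89 (miR-217), -2.11 (miR-216a) and -2.19 (miR-216b-5p). Unadjusted limma p was 0.026, 0.031 and 0.031, adjusted p 0.163, 0.17 and 0.17, and the ages overlapped. In replicates 2, 4, 10 and 16, miR-216a had 90.1, 501, 916 and 177 units, against 529, 673 and 1092 at 3 months. Replicate 10, the older rat with the highest miR-21, was the highest older rat for all 3. Among the younger rats, replicate 13 was the highest for all 3. Before normalisation its miR-21 signal was the lowest of the younger rats (1387 units), and after normalisation that of replicate 9 was. The part of leucocytes, mesenchymal and acinar cells in the levels of miR-21, miR-146a and miR-146b was not tested.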

How the data were processed

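The authors deposited the output of Agilent Feature Extraction (version 10.7.3.1) for each array, with linear, background-subtracted intensity values and detection calls. A second file that the authors deposited holds log2 values of 307 miRNAs, described as quantile normalised in the notes of the study's supplementary miRNA lists. Scale and direction of that matrix followed from the scanner output, and its medians are equal on all arrays (6.44).

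A floor of 1 was applied to the total gene signals, and their log2 values were quantile normalised over the 677 rat miRNAs with limma (version 3.58.1, R 4.3.3). The 272 miRNAs with a detection call in all rats of one age or both were tested with lmFit and eBayes (3.03 prior degrees of freedom), with Benjamini-Hochberg adjustment over all 272. Exact permutation tests used all 35 splits of the rats and are two-sided on the absolute difference of means. The labels state separate rats by number only, so p values cover the spread between these samples. The pipeline was tested on simulated data. Spots without outlier flags were averaged for the values per probe, which left 6 to 10 spots per probe and array for the members. The array header names the older assembly rn4, and GRCr8 was used for sequences and neighbours only.

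The members, lists and tests were chosen with earlier results of these data known. Named miRNAs are the members, their other strands, the 3 nearest profiles of each, listed miRNAs with an unadjusted p below 0.05 or used as markers, and others of the lists as examples chosen after their values were seen. The alternatives were another scaling (75th percentiles, miR-7a, none), filter, floor, spot summary, background correction, variance model, test, the slide row, leaving out each rat, and the deposited matrix. Marker lists of erythroid cells (median difference -0.52 over 2 tested), endothelial cells (0.32 over 2, of which miR-126* was detected in 2 of 3 younger rats), acinar cells (-2.11 over 3) and endocrine cells (-0.20 over 3) were also read.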

Additional observations from a re-analysis of the deposited data

Results flagged for a closer look

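Among 13 measures checked in the 4 older rats, 2 had 1 rat far from the rest: its distance to the next rat, as a share of the whole range, exceeded Dixon's 95% critical value. Chance gives this at about 1 in 20 measures. For the normalised log2 signal of miR-21 the value was 0.846, and replicate 10 was the rat that lay above the others (12.57 against 11.55 to 11.70). Before normalisation the same rat had the highest signal of miR-21, with a value of 0.799. For the within-array difference between miR-21 and miR-146a the value was 0.859, and replicate 4 was the rat that lay below the others, with the highest miR-146a signal of its age.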

How the results depend on the processing

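Of the 23 alternatives, 22 left miR-21 and 22 left miR-146b on the same side of 0 and without a limma adjusted p below 0.05; the exception was no normalisation between arrays, with 1.12 for miR-21, 0.92 for miR-146b and 0.82 for miR-146a, all with an adjusted p below 0.05. miR-146a changed sign with scaling to miR-7a (-0.049) and with array weights (-0.27), and with any 1 of the 7 rats removed it ran from -0.13 to 0.27. Likewise miR-21 ran from 0.19 to 0.66 and miR-146b from 0.12 to 0.33. With array weights miR-21 was 0.045. The within-array differences ran from 0.14 to 0.66 for miR-21 and miR-146a, from -0.12 to 0.41 for miR-21 and miR-146b, and from -0.41 to 0.12 for miR-146a and miR-146b when 1 rat was left out.

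Over all tested miRNAs, 4 were called at an adjusted p below 0.05 and 59 at an unadjusted one. The first count was 20 with a 75th percentile over the always-detected miRNAs, 9 with that of all miRNAs, 15 with scaling to miR-7a, 171 with no normalisation, 1 with miRNAs detected on all arrays, 2 with normexp on the median spot signal, 48 with array weights and 8 with the deposited matrix, and it ran from 4 to 10 without 1 rat, the highest without 12-month-old replicate 10. The second count was 37 with scaling to miR-7a, 193 with no normalisation and 89 with array weights, and it ran from 41 to 88 without 1 rat, the highest without 12-month-old replicate 10. Its split into higher and lower at 12 months was 25 and 34, against 189 and 4 with no normalisation, 9 and 28 with scaling to miR-7a, 49 and 40 with array weights, and 52 and 36 without replicate 10. Of the cytokine list, 0 were called at an adjusted p below 0.05, 6 with no normalisation and 1 (miR-29b) with the deposited matrix. At an unadjusted p below 0.05 there was 1, against 2 with a 75th percentile over the always-detected miRNAs, 8 with no normalisation, 2 with no filter, 0 with normexp, 0 with array weights, 3 with the deposited matrix, and 0 to 1 without 1 rat, with 0 when 12-month-old replicate 2, 4 or 16 was left out. The causes were not tested. No paired analysis was possible because the ages share no replicate numbers.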
